A study of Mus musculus with 12 samples.

Results

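The 10 genes described here encode the proteins that tie integrins to the actin cytoskeleton at focal adhesions, with the actin linkers and crosslinkers that meet them there. They were taken by name from the gene count table, and all 10 were among its 24453 genes: Vcl and Tln1, which link the adhesion plaque to actin; Pxn and Ptk2, an adaptor and a kinase; Zyx, Enah and Vasp, which promote actin assembly; and Actn1, Actn4 and Flna, which crosslink actin filaments. Their levels were read by RNA-Seq in 12 libraries, 3 cultures for each of 4 lines of mouse embryonic fibroblasts (MEFs). All 4 lines were labelled Pnpt1 neo-flox/neo-flox on the C57BL6/J strain, and in PKO-1 and PKO-6 Cre had removed the loxP-flanked exon. The medium of all 4 lines held 50 μg/mL uridine. TM6 was the untreated parental line, immortalized with a viral large T antigen. The rho0 line lacks mtDNA and was a colony grown from 1 cell after TM6 had been cultured for 3 weeks with 750 ng/mL ditercalinium dichloride dihydrochloride. PKO-1 and PKO-6 were knockouts of PNPase, the RNA-processing enzyme that Pnpt1 encodes, and each was a colony grown from 1 cell after Cre delivery by adenovirus in medium with uridine. Each derived line is therefore 1 clone, so that the spread between its cultures holds no spread between clones, and what separates a derived line from TM6 cannot be told apart from what separates any clone from its parent population.

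Focal adhesions are plaques of many proteins on the inner face of the plasma membrane, where integrins that hold the extracellular matrix are coupled to bundles of actin called stress fibers. Talin, encoded by Tln1, binds the tails of integrins and activates them, and vinculin, encoded by Vcl, binds stretched talin and actin and strengthens the link under force. In fibroblasts many genes of this system are known targets of the transcription factor SRF, whose coactivators respond to the pool of free actin monomers.

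The libraries held 47164860 to 67991378 estimated counts, of which 12.2% to 19.6% fell on the ribosomal RNA gene Rn45s. The 10 genes together took 0.568% to 0.595% of the remaining counts in TM6 and 0.392% to 0.45% in the 9 libraries of the derived lines. Pnpt1 itself lay between 2832 and 3320 normalized counts in TM6, 5051 and 5510 in rho0, 1191 and 1276 in PKO-1, and 1720 and 2214 in PKO-6. That gene-level count takes in exons outside any deleted part, so it tests the knockout labels only weakly. Of the fibroblast markers, Col1a1, Col1a2, Vim, Fn1, Pdgfrb and S100a4 had at least 1460 normalized counts in each library, while Thy1 was at 0 to 4.99. Their levels differed between the lines, not all in the same direction. Col1a1 averaged 182000 in TM6, 61600 in rho0, 98100 in PKO-1 and 38400 in PKO-6, and Fn1 averaged 113000, 238000, 259000 and 208000. The 7 markers summed to 533600 to 580700 in TM6, 451300 to 504200 in rho0, 598700 to 648400 in PKO-1 and 354900 to 395700 in PKO-6. Of the leukocyte markers, Adgre1 was at 0 in all 12 libraries and Ptprc at most 3.2, while Cd68 lay at 72.6 to 106 in TM6, 94.9 to 154 in rho0, 82 to 104 in PKO-1 and 169 to 200 in PKO-6. The endothelial markers Pecam1, Cdh5 and Tek summed to 5.73 to 28.1. The epithelial markers moved in different directions: Epcam lay at 77 to 105 normalized counts in PKO-6, against at most 11.2 in the other lines, whereas Krt18 lay at 4.85 to 9.83 in PKO-6, 232 to 247 in TM6, 391 to 455 in rho0 and 806 to 833 in PKO-1. Cdh1 was at most 10.4 and Krt8 at most 18.2, and the 4 summed to 254 to 276 in TM6, 409 to 471 in rho0, 815 to 842 in PKO-1 and 107 to 136 in PKO-6. The part of these markers in the changes of the 10 genes was not tested.

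All 10 genes passed the filter on low counts. Compared per length, as TPM (a transcript's length-corrected share of its library), Flna, encoding the actin crosslinker filamin A, had the highest level in TM6 with 454.51 ± 11.8 TPM (SD, n = 3). Actn1 followed with 255.27 TPM, Zyx with 222.26, Actn4 with 187.97, Vcl with 158.56 and Tln1 with 151.47. Ptk2, Pxn and Vasp stood lower, at 60.22, 57.51 and 45.04 TPM, and Enah was lowest at 11.5 TPM. In PKO-6 this order was different, with Actn1 at 250.21 TPM above Flna at 212.4 TPM, and with Vcl, at 45.44 TPM, below Vasp at 76.35 TPM. The SDs of both genes in each of these pairs left the means apart.

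**Figure D1:**
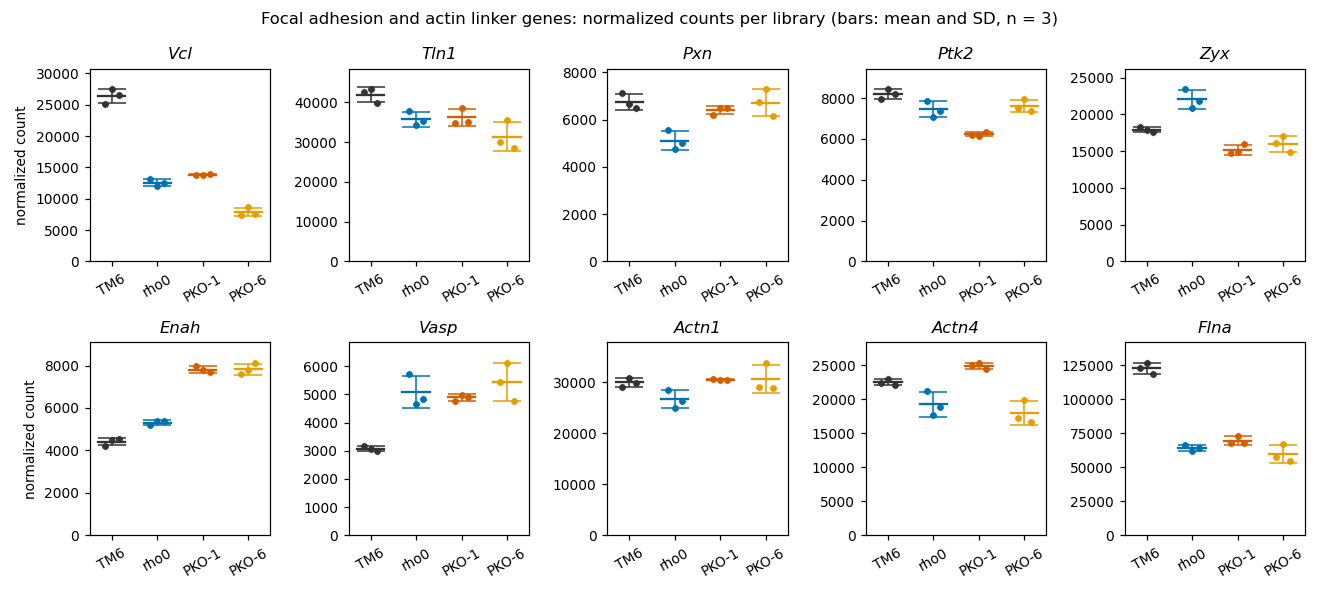
Normalized counts (y axis, from 0, its own scale in each panel) for each of the 10 genes in the 4 lines (x axis). Points are the 3 libraries of a line, the wide line is their mean and the bars are the SD; Vcl and Flna stand highest in TM6, Enah and Vasp stand lowest there, and Actn1 lies at similar levels in the 4 lines.

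Vcl (chr14:20929433-21033673, plus strand, mm10) showed the widest range of the 10 genes. Its normalized counts were 25179, 27484 and 26635 in TM6, 13190, 12078 and 12455 in rho0, 13816, 13794 and 14000 in PKO-1, and 7343, 8649 and 7614 in PKO-6. TM6 stood above the derived lines and PKO-6 below them, with no overlap between any of the 4 groups of libraries. Against TM6, Vcl fell 2.1-fold in rho0 (log2 fold change -1.07, SE 0.0651, adjusted p = 4.87e-09, edgeR quasi-likelihood test with Benjamini-Hochberg adjustment), 1.91-fold in PKO-1 (-0.93, adjusted p = 2.75e-08) and 3.36-fold in PKO-6 (-1.75, adjusted p = 3.23e-11). These comparisons share the TM6 libraries. Between the knockout clones Vcl was 1.76-fold higher in PKO-1 (log2 fold change 0.82, SE 0.065, adjusted p = 1.25e-07), and PKO-6 was also below rho0 (-0.68, adjusted p = 1.4e-06). PKO-1 and rho0 were neighbours in the order that did not differ beyond the test's spread (0.14, SE 0.0645, adjusted p = 0.0684).

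The promoter of Vcl is shown because of the 8 members with an entry in the RefSeq promoter table (GRCm38.p6) it was the only promoter with a CArG box, the motif that SRF binds. Searched as CC, 6 bases of A or T, and GG, which reads alike on both strands, the box was found in the 250 bases before the annotated start of 1.47% of 32851 promoters. The stretch lies at chr14:20929148-20929397 on the plus strand, directly before the start that the promoter entry gives. That start is upstream of 20929433, where the transcript used for counting begins. The box begins 227 bases before the start of the entry. It takes in the letters TATAA, which alone or as TTATA occur in 22.8% of promoters. A second set of capitals marks GGAATG, the core of the site bound by TEAD factors, 143 bases before the start of the entry. Searched on both strands as GGAATG or CATTCC, this core was also found before Actn4 and Flna, and in 12.6% of all promoters. These matches describe letters in a window, and no binding was measured.
Vcl promoter: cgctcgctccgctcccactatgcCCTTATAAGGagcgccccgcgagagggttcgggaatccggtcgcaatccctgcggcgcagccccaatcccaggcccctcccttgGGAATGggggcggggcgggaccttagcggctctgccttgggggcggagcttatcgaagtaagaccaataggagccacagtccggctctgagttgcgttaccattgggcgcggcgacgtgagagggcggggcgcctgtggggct

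Tln1 (chr4:43531513-43562583, minus strand) differed between the lines far less than its partner Vcl. It lay at 42632, 43269 and 39868 normalized counts in TM6, at 37868, 34222 and 35203 in rho0, at 34902, 38574 and 35116 in PKO-1, and at 29916, 35476 and 28565 in PKO-6. TM6 was highest and PKO-6 lowest, but the second PKO-6 library reached into the range of rho0 and PKO-1. The log2 fold change from TM6 was -0.23 in rho0 (adjusted p = 0.0207), -0.21 in PKO-1 (adjusted p = 0.0336) and -0.42 in PKO-6 (SE 0.0808, adjusted p = 0.000351), the last of these short of the fold threshold of 0.5. Without that second PKO-6 library it was -0.55 and passed. That library also gave the highest value of its line for 8 of the other 9 genes, the exception being Enah, and 19.15% of its counts fell on Rn45s, against 17.78% and 12.2% in the other PKO-6 libraries; the part of this in the result was not tested.

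Among the plaque's signalling members, Pxn (chr5:115506676-115555987, plus strand) encodes paxillin, a scaffold to which kinases and vinculin bind. It lay at 7112, 6645 and 6486 normalized counts in TM6, 5551, 4755 and 5018 in rho0, 6197, 6477 and 6493 in PKO-1, and 6732, 7285 and 6144 in PKO-6. Only rho0 stood apart, below the libraries of the other 3 lines. Its log2 fold change from TM6 was -0.40 in rho0 (SE 0.0705, adjusted p = 0.000167), under the fold threshold, against -0.08 in PKO-1 and -0.01 in PKO-6. PKO-1 and PKO-6 exceeded rho0 by 0.32 (adjusted p = 0.00124) and 0.40 (adjusted p = 0.000357) on the log2 scale, and neither of these passed the fold threshold.

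Ptk2 (chr15:73205105-73423191, minus strand) encodes focal adhesion kinase, the tyrosine kinase that is activated when integrins engage. It read 7941, 8439 and 8226 normalized counts in TM6, 7873, 7096 and 7396 in rho0, 6216, 6131 and 6326 in PKO-1, and 7522, 7949 and 7352 in PKO-6. PKO-1 was the low line here, below all other libraries, while PKO-6 overlapped both TM6 and rho0. Its change from TM6 was -0.40 in PKO-1 (SE 0.052, adjusted p = 1.38e-05), -0.14 in rho0 and -0.11 in PKO-6, and no comparison of Ptk2 passed both thresholds. The median change of the 561 tested genes of its chromosome 15 was -0.38 in rho0 and -0.23 in PKO-1.

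Zyx (chr6:42349828-42360213, plus strand) encodes zyxin, a LIM protein that moves to strained stress fibers and brings Ena/VASP proteins to them. Its normalized counts were 18252, 17865 and 17593 in TM6, 23433, 20880 and 21839 in rho0, 14715, 14829 and 15999 in PKO-1, and 16089, 17043 and 14901 in PKO-6. Here rho0 was the high line and the clones the low ones, with TM6 between them and no overlap of TM6 with either side. Against TM6 the log2 fold change was 0.30 in rho0 (SE 0.0632, adjusted p = 0.000741), -0.24 in PKO-1 (adjusted p = 0.00465) and -0.16 in PKO-6 (adjusted p = 0.0352), none past the fold threshold. Set directly against rho0, Zyx was 1.45-fold lower in PKO-1 (log2 fold change -0.54, SE 0.0634, adjusted p = 6.03e-06). In PKO-6 the difference from rho0 was -0.46 (adjusted p = 3.89e-05), just short of the fold threshold, and it was -0.51 without the second rho0 library and -0.52 without the second PKO-6 library, past the threshold in both.

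Enah (chr1:181896386-182019980, minus strand), the gene of Mena, and Vasp (chr7:19256930-19271854, minus strand) encode Ena/VASP proteins, which bind growing filament ends and zyxin and speed actin elongation. Enah gave 4225, 4476 and 4518 normalized counts in TM6, 5187, 5365 and 5373 in rho0, 7966, 7782 and 7677 in PKO-1, and 7602, 7785 and 8113 in PKO-6. TM6 was lowest, and rho0 lay between TM6 and the clones without touching either. Enah rose 1.77-fold in PKO-1 (log2 fold change 0.83, SE 0.0468, adjusted p = 3.33e-09) and 1.78-fold in PKO-6 (0.83, adjusted p = 1.9e-09), while its change of 0.27 in rho0 (adjusted p = 0.000154) stayed under the fold threshold. The clones also exceeded rho0 directly, by 0.56 in PKO-1 (adjusted p = 2.11e-07) and by 0.56 in PKO-6 (adjusted p = 3.27e-07). With the median change of its chromosome subtracted, the difference of PKO-1 from rho0 was 0.498 and no longer passed the fold threshold, as in pooled PKO against rho0 (0.47), while PKO-6 against rho0 stayed past it. Between the clones the difference was -0.005 with an SE of 0.0463.

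Vasp lay at 3161, 3069 and 2991 normalized counts in TM6, 5737, 4670 and 4838 in rho0, 4765, 4987 and 4924 in PKO-1, and 5439, 6109 and 4762 in PKO-6. All 9 libraries of the derived lines were above all 3 of TM6, and the derived lines overlapped each other. Vasp rose 1.65-fold in rho0 (log2 fold change 0.73, SE 0.0879, adjusted p = 5.29e-06), 1.59-fold in PKO-1 (0.67, adjusted p = 1.42e-05) and 1.77-fold in PKO-6 (0.82, adjusted p = 1.44e-06). The 3 derived lines did not differ from each other beyond the spread, with log2 differences of -0.05 (PKO-1 against rho0, SE 0.0871), 0.10 (PKO-6 against rho0, SE 0.0869) and -0.15 (PKO-1 against PKO-6, SE 0.087).

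**Figure D2:**
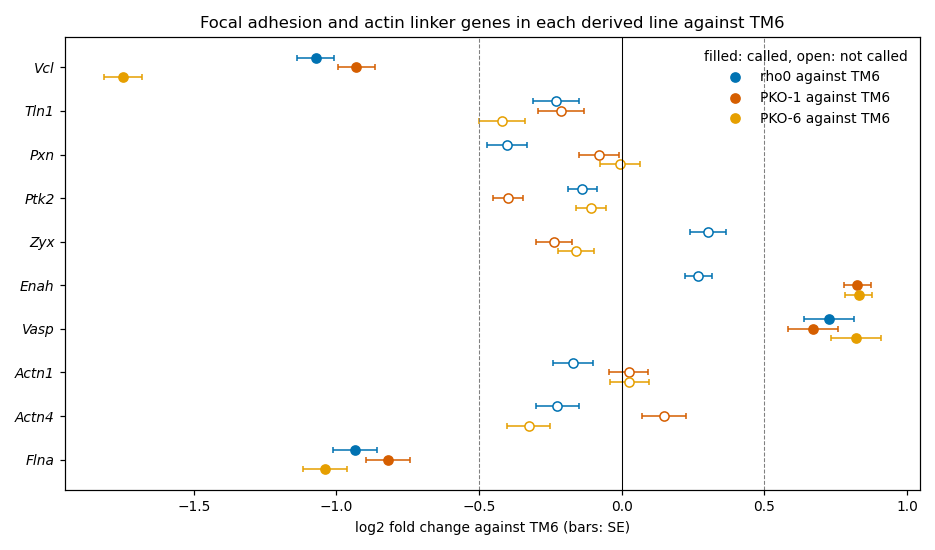
Log2 fold change from TM6 (x axis, bars are the SE) of each of the 10 genes (y axis) in rho0, PKO-1 and PKO-6, with dashed lines at the fold threshold of 0.5 in either direction. Filled points passed both thresholds; Vcl and Flna lie to the left and Vasp to the right in all 3 lines, and Enah is filled in PKO-1 and PKO-6 only.

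Of the actin crosslinkers, Flna alone was called in any comparison. Actn1 (chr12:80167542-80260371, minus strand) and Actn4 (chr7:28893254-28962280, minus strand) encode the nonmuscle alpha-actinins, which bundle actin filaments. Actn1 stood at 29150, 30866 and 29929 normalized counts in TM6, 28515, 25046 and 26342 in rho0, 30671, 30371 and 30506 in PKO-1, and 29004, 33743 and 28931 in PKO-6. It had the smallest range of the 10 genes, with 1.15-fold between the highest line and rho0, the lowest. None of its comparisons passed the thresholds, and its log2 fold change from TM6 was -0.17 in rho0 (SE 0.0688), 0.03 in PKO-1 (SE 0.0688) and 0.03 in PKO-6 (SE 0.0688). Actn1 lies on chromosome 12, where the median change of 491 tested genes from TM6 was 0.55 in rho0, 0.56 in PKO-1 and 0.53 in PKO-6, so that 14.9%, 19.8% and 18.3% of the genes of that chromosome stood below it. The median over all tested genes was 0.02, 0.001 and 0.01 in the same comparisons.

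Actn4 gave 22403, 23048 and 22122 normalized counts in TM6, 21204, 17695 and 18858 in rho0, 25039, 25338 and 24482 in PKO-1, and 17322, 19959 and 16623 in PKO-6. The clones lay on opposite sides of TM6, PKO-1 above it and PKO-6 below it. Neither change from TM6 passed, at 0.15 in PKO-1 (adjusted p = 0.104) and -0.33 in PKO-6 (SE 0.076, adjusted p = 0.00161), and the difference between the clones was 0.47 (SE 0.0761, adjusted p = 0.000105), under the fold threshold. Without the second PKO-6 library, which was that line's highest, it was 0.56 and passed. Capn12 and, at the Zyx locus, Epha1 overlap these genes on the opposite strand, with means of 133.8 and 125.8 estimated counts, and the strand setting of the counting is not given in the sources used here.

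Flna (chrX:74223461-74246534, minus strand) encodes filamin A, which joins filaments into networks and binds integrin tails. Libraries gave 122860, 126560 and 118730 normalized counts in TM6, 66738, 61810 and 64196 in rho0, 67772, 73188 and 67668 in PKO-1, and 57499, 67027 and 54509 in PKO-6. The TM6 libraries stood far above the rest, and the ranges of rho0 and PKO-6 overlapped. Flna fell 1.91-fold in rho0 (log2 fold change -0.93, SE 0.0773, adjusted p = 1.16e-07), 1.76-fold in PKO-1 (-0.82, adjusted p = 5.66e-07) and 2.06-fold in PKO-6 (-1.04, adjusted p = 3.43e-08), and no difference among the derived lines passed the thresholds. Flna lies on chromosome X, whose 459 tested genes had a median change from TM6 of -0.75 in rho0, -0.74 in PKO-1 and -0.87 in PKO-6, with 78.4%, 87.8% and 82.8% of them below 0. With that median subtracted, the change of Flna was -0.18, -0.08 and -0.17, under the fold threshold in each line, while the same subtraction left Vcl on chromosome 14 at -1.07, -0.92 and -1.64. Xist, the RNA of the inactive X chromosome, lay at 29776 to 38495 normalized counts in TM6, 47051 to 109330 in rho0 and 55288 to 99686 in PKO-6, and at 16 to 53.6 in PKO-1. The part of the chromosome-wide shift, or of Xist, in the change of Flna was not tested.

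**Figure D3:**
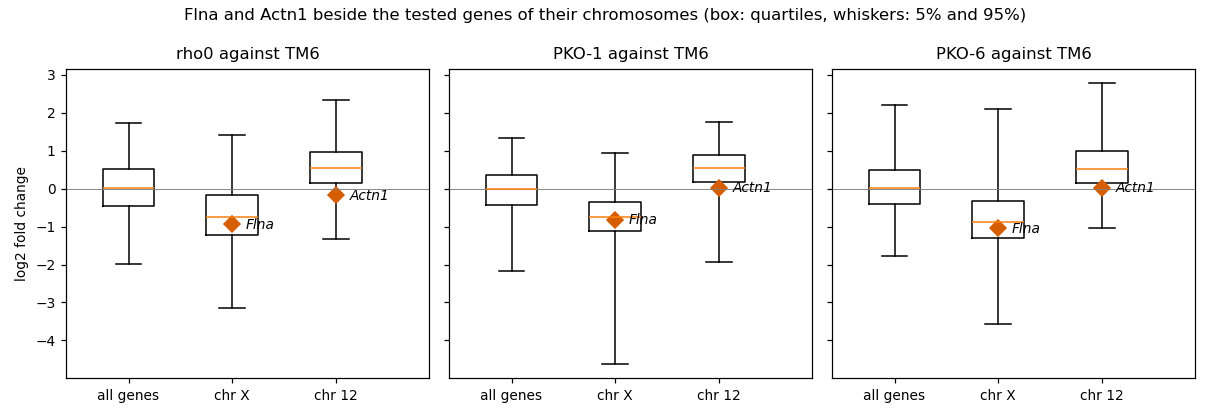
Log2 fold change from TM6 (y axis) of all 14026 tested genes, the 459 of chromosome X and the 491 of chromosome 12 (x axis), with 1 panel per derived line. Boxes span the quartiles around the median and whiskers reach the 5% and 95% points; the diamond for Flna lies inside the lowered box of chromosome X, and that for Actn1 lies below the raised box of chromosome 12.

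Counted over the 10 genes, calls needed an adjusted p under 0.01 together with a log2 fold change beyond 0.5 in either direction. In rho0 against TM6, 3 of 10 were called, with Vasp higher and Vcl and Flna lower, beside 42.1% of all 14026 tested genes. In PKO-1 against TM6, 4 of 10 were called, with Enah and Vasp higher and Vcl and Flna lower, beside 34.3% of tested genes, and in PKO-6 against TM6 4 of 10, the same genes and directions, beside 41.3%. Read against those backgrounds, the number of calls is no result about the group. The median absolute log2 fold change over the 10 genes was 0.28, 0.32 and 0.37 in rho0, PKO-1 and PKO-6, against 0.48, 0.39 and 0.46 over all tested genes. Likewise, the gap between the highest and the lowest line exceeded its median over tested genes, 0.79 on the log2 scale, in Vcl, Flna, Enah and Vasp, and it was under that in the other 6.

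Among the derived lines fewer of the 10 were called. Only Vcl passed between PKO-1 and PKO-6, beside 29.1% of tested genes. PKO-1 against rho0 gave 2, Zyx lower and Enah higher, beside 32.7%, and PKO-6 against rho0 gave 2, Vcl lower and Enah higher, beside 21.5%. With PKO-1 and PKO-6 pooled into 1 group of 6 libraries, which was the study's grouping and counts the gap between the clones as spread, 4 of 10 were called against TM6, beside 25.7% of tested genes. Enah rose by 0.83 (SE 0.0473, adjusted p = 1.42e-07) and Vasp by 0.75 (adjusted p = 5.91e-05) on the log2 scale, and Flna changed by -0.93 (adjusted p = 7.18e-06) and Vcl by -1.28 (SE 0.209, adjusted p = 0.000375). The SE of Vcl had been 0.0649 in PKO-1 and 0.0663 in PKO-6 with the clones fitted apart. Pooled PKO against rho0 gave 1 call, Enah at 0.56 (SE 0.0467, adjusted p = 1.21e-05), beside 10.7% of tested genes, and Zyx stood at the edge of the fold threshold with -0.50 (SE 0.0615, adjusted p = 0.000161). It was -0.51 to -0.55 and passed when TM6 replicate 1, rho0 replicate 2 or 3, PKO-1 replicate 3, or PKO-6 replicate 1 or 2 was left out. Vcl did not pass there (-0.21, SE 0.215, adjusted p = 0.473), with PKO-1 above rho0 and PKO-6 below it.

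The estimated transcripts of Enah differed between the lines in form as well as level. Of its 4 annotated transcripts, 3 hold the long form of a coding exon, chr1:181921658-181922500 on the minus strand (mm10), 843 bases in length, and the other holds only its last 111 bases. The extra 732 bases are 244 codons and keep the reading frame. Transcripts with the long form took 37.0%, 33.3% and 26.2% of the estimated Enah counts in TM6, 15.5%, 24.9% and 21.0% in rho0, 11.1%, 15.6% and 16.7% in PKO-1, and 15.7%, 15.6% and 16.5% in PKO-6. The share was higher in all 3 TM6 libraries than in any library of the derived lines, so that TM6 had the lowest level of Enah and the highest share of its long form. In estimated counts, not scaled for depth, the long form had 1186 to 1809 in TM6 and 744 to 1454 in the derived lines. RSEM splits reads shared by transcripts with a model, and these shares are given with no test. The sequence, from GENCODE transcripts of the same build, is printed from 60 bases before the junction, with the 111 bases common to both forms in capitals (chr1:181921658-181921828); the part in lower case ends in ag.
Enah exon border: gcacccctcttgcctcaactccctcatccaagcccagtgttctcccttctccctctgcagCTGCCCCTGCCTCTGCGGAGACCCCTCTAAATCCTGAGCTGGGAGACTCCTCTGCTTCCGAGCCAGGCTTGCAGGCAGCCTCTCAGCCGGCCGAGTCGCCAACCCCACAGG

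Pxn has 2 annotated transcripts, which differ by an exon of 102 bases at chr5:115551488-115551589 on the plus strand. The transcript with it took 31.4%, 27.9% and 31.3% of Pxn counts in TM6, 28.3%, 36.0% and 27.6% in rho0, 34.8%, 38.4% and 35.9% in PKO-1, and 23.0%, 22.1% and 23.6% in PKO-6. The clones lay on opposite sides of TM6 and did not overlap, although their gene-level counts differed by only -0.07 on the log2 scale (PKO-1 against PKO-6, SE 0.0703). An alternative exon of 24 bases in Flna, chrX:74232967-74232990 on the minus strand, was held by transcripts with 35.3% to 35.9% of its counts in TM6, 38.9% to 41.6% in rho0, 38.8% to 40.9% in PKO-1 and 36.2% to 37.8% in PKO-6, a narrow range beside the fall in its level. The Flna transcript with this exon also has an internal exon of 122 bases where the other has 124. Both exons are printed since their lengths are multiples of 3, so that neither shifts the reading frame by itself. For Zyx, the transcripts that keep an exon of 93 bases took 93.0% to 94.2% of counts in TM6 and 95.2% to 97.1% in the derived lines. Vcl, Tln1, Actn1 and Actn4 had 1 annotated transcript each.
Pxn alternative exon: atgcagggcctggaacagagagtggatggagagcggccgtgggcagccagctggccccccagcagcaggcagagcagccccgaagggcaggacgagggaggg
Flna alternative exon: tgtcaatcggaggtcacgggctag

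**Figure D4:**
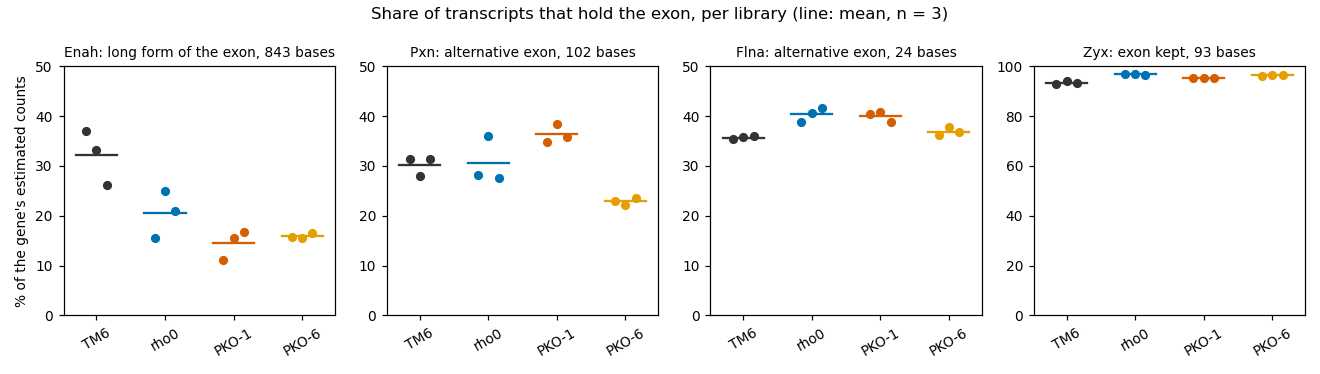
Percent of each gene's estimated counts assigned to transcripts that hold the named exon (y axis, to 50% for Enah, Pxn and Flna and to 100% for Zyx) in the 4 lines (x axis). Points are libraries and lines are the means of 3; the long form of the Enah exon is highest in TM6, at 26.2% to 37.0%, and the Pxn exon is lowest in PKO-6, at 22.1% to 23.6%.

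The genes most like Vcl, Flna and Enah across the lines were found by the largest difference, over the 4 lines, between mean log2 levels centred on each gene's own mean, among 11204 genes with at least 100 normalized counts. Nearest to Vcl were Vps4a (0.08), Arl2bp, Gsr, Maoa and Tmem97 (0.12), and only 4 genes lay within 0.1 of it. Flna had 43 genes within 0.1, and its nearest were Csrp1 (0.03), which encodes a LIM protein of actin bundles, Fmr1 on chromosome X, Crat, Slc35c1 and Ryk. Tpp1, Enpp5, Zfp644, Cd302 and Fkbpl were nearest to Enah, with differences of 0.04 to 0.06, and 13 genes lay within 0.1 of it.

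Another 106 genes of the adhesion and actin system were sorted by role into 6 lists, of which 103 were tested; 5 lists are described. Fermt1, Parvg and Actn2 were not, with means of 0, 3.4 and 3.47 normalized counts. In rho0 against TM6, 8 of the 103 were higher and 38 lower, in PKO-1 9 and 30, and in PKO-6 10 and 34. That is 44.7%, 37.9% and 42.7% called, against 42.1%, 34.3% and 41.3% of all tested genes, and the median log2 fold change was -0.28, -0.25 and -0.22, against 0.02, 0.001 and 0.01. Of all tested genes, 2899 were called higher and 3003 lower in rho0, 2294 and 2516 in PKO-1, and 3077 and 2722 in PKO-6. The lists were drawn up with earlier results of these data known, and their lean to lower levels was not tested.

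The list of crosslinkers, actins, myosin and tropomyosin had the lowest median in rho0 and PKO-6. Of its 17 tested genes 10 were lower and none higher in rho0 (median -0.59), 6 were lower and 2 higher in PKO-1 (median -0.28), and 9 were lower and none higher in PKO-6 (median -0.62). These calls are 58.8%, 47.1% and 52.9% of the list, beside 42.1%, 34.3% and 41.3% of all tested genes. Myl9, a regulatory light chain of contractile myosin, lay at 2830 to 3219 normalized counts in TM6, 582 to 684 in rho0, 892 to 956 in PKO-1 and 56.5 to 79.8 in PKO-6. PKO-6 stood apart from PKO-1 here (log2 fold change 3.83 for PKO-1 against PKO-6, adjusted p = 5.91e-12). Myl9 was named for its fall in PKO-6, and that choice favours such a gap. Its relative Myl12b went the other way in PKO-1, with a rise of 0.70 on the log2 scale (adjusted p = 1.83e-07), and fell by 0.59 in rho0; whether its near relative Myl12a shares reads with it was not tested.

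LIM domain and stress fiber scaffold proteins, the list nearest in role to Zyx, had 8 of 17 lower and none higher in rho0, 7 lower and none higher in PKO-1, and 6 lower and 1 higher in PKO-6. That is 47.1%, 41.2% and 41.2% called, beside 42.1%, 34.3% and 41.3% of all tested genes. Fhl1, a LIM-only protein, lay at 1808 to 2005 normalized counts in TM6, 93.8 to 124 in rho0, 5.33 to 13.1 in PKO-1 and 5.73 to 11.4 in PKO-6; it is on chromosome X. The gene called higher in PKO-6 was Tes, which encodes testin, at 2720 to 2949 against 1308 to 1442 in TM6 (log2 fold change 1.02, adjusted p = 4.19e-09). Zyx itself changed from TM6 by less than the fold threshold in each line.

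In the list of integrin activators and the ILK complex, 3 genes were higher and 4 lower of 12 tested in rho0, 1 and 3 in PKO-1, and 3 and 5 in PKO-6. The shares called were 58.3%, 33.3% and 66.7%, beside 42.1%, 34.3% and 41.3% of all tested genes. Parvb, encoding beta-parvin, a partner of integrin-linked kinase, rose from 1399 to 1503 normalized counts in TM6 to 3062 to 3374 in rho0, 5610 to 5803 in PKO-1 and 7430 to 8454 in PKO-6. Its partner Ilk went down in rho0 (log2 fold change -0.77, adjusted p = 1.43e-07) and PKO-6 (-1.13, adjusted p = 2.35e-09), and was at -0.30 in PKO-1, under the fold threshold. Ilk was lower in PKO-6 than in PKO-1, by 0.84 on the log2 scale, but it too was named for its fall in PKO-6.

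Adhesion kinases and adaptors had 2 higher and 8 lower of 25 in rho0, 1 and 8 in PKO-1, and 1 and 8 in PKO-6. The shares called were 40%, 36% and 36%, beside 42.1%, 34.3% and 41.3% of all tested genes. Ptk2b, the close relative of Ptk2, lay at 896 to 929 normalized counts in TM6 and at 2.23 to 3.87 in rho0, 12.8 to 17.6 in PKO-1 and 45.0 to 56.2 in PKO-6, while Ptk2 kept between 6131 and 8439 in all libraries. Fyn, a Src family kinase that acts with focal adhesion kinase, was higher than TM6 in rho0 (log2 fold change 1.16, adjusted p = 1.98e-10) and PKO-6 (1.18, adjusted p = 1.29e-10) and at 0.10 in PKO-1 (adjusted p = 0.12).

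Genes of actin assembly and turnover had 1 higher and 4 lower of 18 in rho0, 2 and 3 in PKO-1, and 1 and 3 in PKO-6. The shares called, 27.8%, 27.8% and 22.2%, were below the 42.1%, 34.3% and 41.3% of all tested genes. Raph1 encodes lamellipodin, which recruits Ena/VASP proteins to the leading edge, and rose with Vasp in rho0 (0.84, adjusted p = 6.39e-06), PKO-1 (0.95, adjusted p = 2.64e-06) and PKO-6 (0.51, adjusted p = 0.000558). Evl, which encodes another Ena/VASP protein, went the other way in rho0 (-1.21, adjusted p = 5.93e-09) and PKO-1 (-0.775, adjusted p = 6.12e-07). In PKO-6 Evl was at 0.458, under the fold threshold. Pfn2, a profilin that supplies actin monomers, fell by 2.14 in rho0, 0.78 in PKO-1 and 1.24 in PKO-6 on the log2 scale. Srf, the gene of the transcription factor that binds the CArG box, lay at 5176 to 5898 normalized counts in TM6, 2522 to 3200 in rho0, 3678 to 3865 in PKO-1 and 2984 to 3758 in PKO-6, with log2 fold changes from TM6 of -0.98 (adjusted p = 4.45e-07), -0.57 (adjusted p = 1e-04) and -0.71 (adjusted p = 1.07e-05).

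**Figure D5:**
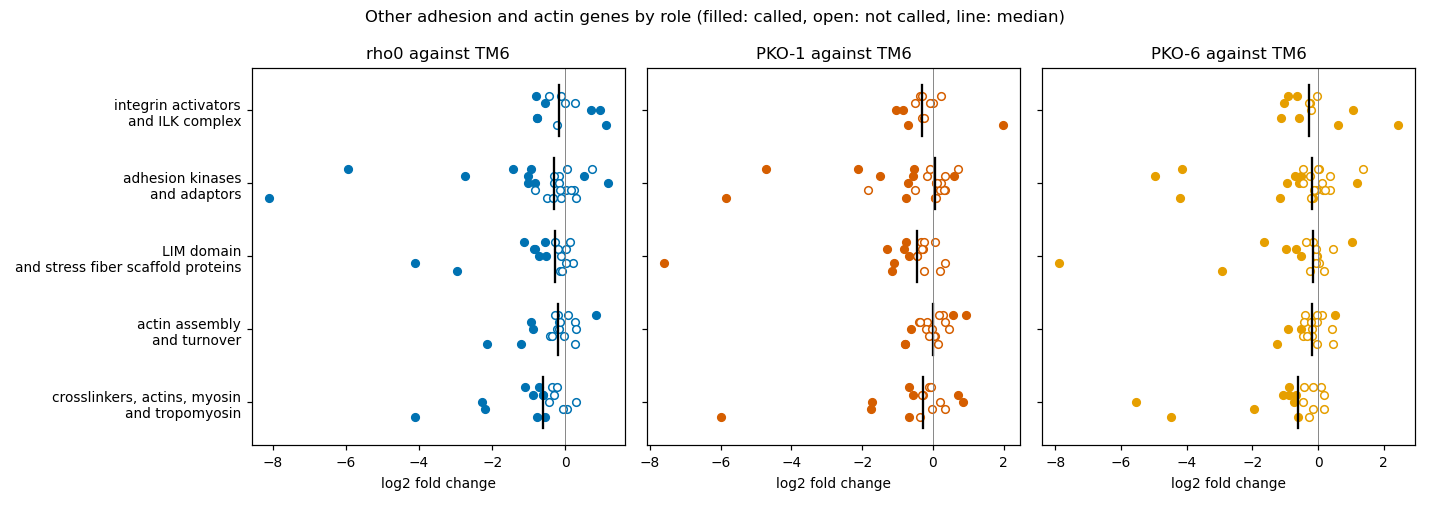
Log2 fold change from TM6 (x axis) of the tested genes of 5 role lists (y axis), with 1 panel per derived line. Filled points passed both thresholds and black lines are list medians, which lie at -0.59, -0.28 and -0.62 for the crosslinkers, actins, myosin and tropomyosin in rho0, PKO-1 and PKO-6.

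Acta2 and Tagln, the abundant genes among the 4 smooth muscle markers, were highest in TM6 and lowest in PKO-6, as Vcl was. Acta2, the actin of smooth muscle and of contractile fibroblasts, lay at 11200 to 11700 normalized counts in TM6, 670 to 847 in rho0, 449 to 507 in PKO-1 and 53.9 to 92.5 in PKO-6, and Tagln at 5740 to 6220, 433 to 579, 321 to 377 and 90.2 to 120. The other genes of that list were low and did not follow this order: Myh11 lay at 6.39 to 23.3 in the 12 libraries, with its highest mean in rho0, and Des at 5.19 to 15.5 in TM6 and rho0 and 39.4 to 54.8 in PKO-1 and PKO-6. The 4 genes summed to 16960 to 17970 in TM6, 1142 to 1447 in rho0, 875 to 932 in PKO-1 and 193 to 260 in PKO-6. In bulk libraries, fewer cells with such a gene and less RNA per cell cannot be told apart. The part of this shift in the changes of Vcl and Flna was not tested. The order of the lines between these ends was not that of Vcl, since Acta2 and Tagln were lower in PKO-1 than in rho0.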

How the data were processed

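RNA was sequenced from 3 cultures of each of 4 MEF lines with stranded, ribosomal RNA-depleted libraries, each prepared in technical duplicate and merged. The authors aligned reads to mm10 (GRCm38) RefSeq transcripts through RSEM 1.2.25, whose reference was prepared with options for both Bowtie and Bowtie2. They deposited expected counts (estimated counts) per gene, together with expected counts and TPM per transcript for each library. The gene counts equalled the sums over transcripts within 0.04.

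Here expected counts were rounded and tested with edgeR 4.0.16 (R 4.3.3): filterByExpr with a minimum count of 10, TMM normalization, and glmQLFit and glmQLFTest with Benjamini-Hochberg adjustment over 14026 genes. Groups came from the sample labels. The 4 lines were fitted together, and PKO-1 and PKO-6 were pooled in a second fit of 3 groups. Calls needed an adjusted p under 0.01 together with a log2 fold change beyond 0.5 in either direction. Normalized counts are counts divided by the effective library size over its mean. The SE is the log2 fold change over the square root of F. The fits were tested on simulated data first. Alternatives were DESeq2 1.42.0, its size factors in edgeR, other filters, thresholds and groupings, a replicate block, subtraction of chromosome medians with p unchanged, and each library left out. The p-values measure the spread between cultures of 1 line or, in the pooled fit, also the gap between PKO-1 and PKO-6. At a lowest library total of 47164860 counts, counting error was small for the 10 genes, whose lowest normalized count was 2991.

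All 10 genes were named. From each role list the called gene with the largest change from TM6 in each direction was named, if its normalized counts averaged 100 or more, and for the 3 widest-ranging genes the 5 most like them. Evl was named as well, as a further Ena/VASP gene. The genes and lists were chosen with earlier results of these data known. Promoters came from RefSeq (8 of 10 genes matched; GRCm38.p6) and exons from GENCODE transcripts of GRCm38. The genes of the sixth role list are not reported here as a list.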

Additional observations from a re-analysis of the deposited data

Results flagged for a closer look

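Vcl differed between the knockout clones, which carry the same labelled genotype and treatment. Its change from TM6 was larger in PKO-6 than in PKO-1, and the difference of these changes, tested as PKO-1 against PKO-6, was 0.82 on the log2 scale (SE 0.065, adjusted p = 1.25e-07, edgeR quasi-likelihood test). All 3 PKO-1 libraries stood above all 3 PKO-6 libraries, and 29.1% of all tested genes were called in the same comparison. With 3 libraries in each line, outlying libraries were not looked for.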

How the results depend on the processing

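The number of the 10 genes called was unchanged by DESeq2's size factors in edgeR, the DESeq2 Wald test, no filter on low counts, an adjusted p below 0.05, fitting only the compared groups and the replicate block, with the exceptions named here. With an absolute log2 fold change above 1, the count was 1 (Vcl) in rho0 against TM6, 0 in PKO-1 against TM6, 2 (Vcl and Flna) in PKO-6 against TM6, 1 (Vcl) in pooled PKO against TM6, and 0 in PKO-1 against PKO-6, PKO-1 against rho0, PKO-6 against rho0 and pooled PKO against rho0; over all tested genes that threshold left 2944, 2274, 3038, 1788, 1950, 2202, 1510 and 667 calls in the same order. In pooled PKO against rho0, where Zyx sat at the fold threshold, the count rose from 1 to 2 with DESeq2's size factors, the Wald test, no filter, only the compared groups, and the mean of the clones in 4 groups (3330 calls over all genes, against 1500). Leaving out single libraries gave 1 to 2 there; Zyx reached -0.51 to -0.55 without TM6 replicate 1, rho0 replicate 2 or 3, PKO-1 replicate 3, or PKO-6 replicate 1 or 2, and the count over all genes was 853 and 841 without rho0 replicates 2 and 3, and 2567 at an adjusted p below 0.05. PKO-1 against PKO-6 gave 1 to 2, with Actn4 added without PKO-6 replicate 2; PKO-6 against TM6 gave 4 to 5 (Tln1, without PKO-6 replicate 2) and PKO-6 against rho0 2 to 3 (Zyx, without rho0 replicate 2 or PKO-6 replicate 2), and the other comparisons kept their counts. Subtracting the chromosome median took Flna below the fold threshold in each comparison with TM6 (-0.18, -0.08, -0.17 and, pooled, -0.15) and Enah in PKO-1 against rho0 (0.498) and in pooled PKO against rho0 (0.47), leaving 1 call in PKO-1 against rho0, 2 in rho0 against TM6, and 3 in PKO-1 and in pooled PKO against TM6; it put Tln1 in PKO-6 against TM6 (-0.54) and Zyx in pooled PKO against rho0 (-0.55) past it. No called value changed sign. The replicate block gave 3, 4, 4, 1, 2, 2, 4 and 1 calls of 10, as without it, in rho0, PKO-1 and PKO-6 against TM6, PKO-1 against PKO-6, PKO-1 and PKO-6 against rho0, and pooled PKO against TM6 and rho0. The main fits did not pair the samples by number. Deviations from the line means correlated at -0.298 to 0.203 between libraries with the same number and at -0.333 to 0.407 between others. These ranges overlap, and with 3 libraries in each line they cannot settle whether libraries with the same number were paired. Scaling to the library total without Rn45s moved no log2 ratio of the 10 genes by more than 0.073.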
